A study of Homo sapiens with 12 samples.

Results

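A375 melanoma cells without MAPKAPK2 were compared with unedited A375 cells after both had spent 48 h in DMSO, the solvent control. A375 is an established human melanoma line driven by mutant BRAF, and MAPKAPK2 encodes the kinase MK2. Knockout was made with CRISPR/Cas9. The comparison uses 6 of the 12 libraries of the series, taken by column name: 3 from knockout cells in DMSO and 3 from wild-type cells in DMSO. The other 6 libraries are the same genotypes with 500 nM JQ1, an inhibitor of BET bromodomain proteins, and serve here only to estimate spread and to set values side by side. All 21698 genes with enough counts to test are described, out of 56609 gene symbols in the deposited table. The series asks how loss of MAPKAPK2 alters the response to BET inhibitors, and these libraries show the 2 genotypes without drug. The sample titles call these cultures untreated, whereas the treatment field gives DMSO, which was followed. Whether the knockout cells are 1 clone or a pool, and whether the replicates are separate cultures, is not stated in the sources used here. The p-values therefore measure the spread between these libraries, which may be technical, and a clone's own features cannot be told apart from loss of the gene.

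MK2 is a kinase downstream of the p38 MAP kinases, which respond to stress and to inflammatory signals. It phosphorylates the small heat shock protein HSP27, the product of HSPB1, and proteins such as tristetraprolin, the product of ZFP36. Tristetraprolin binds AU-rich elements in the 3′ untranslated region (3′ UTR) of mRNAs and directs them to decay, and its phosphorylation by MK2 weakens that activity. Many cytokine and chemokine mRNAs carry such elements. Melanoma cells are also known to move between a melanocytic state and a dedifferentiated state with mesenchymal genes.

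MAPKAPK2 itself lies at chr1:206684944-206734283 on the plus strand of GRCh38 and was reduced in every knockout library. Its level was 88.8, 87.9 and 92.1 CPM (counts per 1000000, scaled for composition) in the wild-type libraries and 11.1, 13.2 and 13.02 CPM in the knockout libraries. The knockout kept 13.9% ± 1.29 (SD, n = 3) of the wild-type mean, and the log2 fold change was -2.85 with an SE of 0.09 (adjusted p = 3.6e-11). Here and below, a gene is said to differ, rise or fall where its Benjamini-Hochberg adjusted p from edgeR's quasi-likelihood test was under 0.05. Of 32 genes of the p38 to MK2 pathway, only 1 other passed, RPS6KA5, which encodes the p38 and ERK target kinase MSK1, at -0.28 (adjusted p = 0.047). That call was lost when any 1 of the 6 libraries was left out. It was also lost with limma on the deposited normalized signal, without a low-count filter and with the replicate number as a block. The related kinase MAPKAPK3 stood at 28.7 ± 1.24 CPM in wild type and 29.9 ± 1.13 in knockout, and MAPKAPK5 at 23.4 ± 2.98 and 24.1 ± 2.73 (SD, n = 3 each). MAPK14, which encodes p38 alpha, had a log2 fold change of -0.03, HSPB1 of 0.26 and ZFP36 of -0.19, none of them past the threshold.

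In all, 1718 of 21698 genes (7.92%) differed between the genotypes, 754 of them (3.47%) higher and 964 (4.44%) lower in knockout cells. Most differences were small: the median absolute log2 fold change of the genes that differed was 0.52, and 425 differed by at least 1 on the log2 scale, 83 higher and 342 lower. With scaling by library totals alone the split was 516 higher and 1158 lower. The count fell to 1092 without knockout replicate 3, 1102 without wild-type replicate 1 and 1096 without wild-type replicate 2, and rose to 2650 without the third knockout library in JQ1, which enters only through the spread. The DMSO libraries held 26558777 to 34594025 counts. The melanocytic markers SOX10 (437 ± 7.38 CPM in wild type, SD, n = 3), MITF, PAX3 and S100B were present, whereas the pigment markers PMEL, MLANA, TYR and DCT were each below 1 CPM in both genotypes. Summed keratinocyte markers were at 5.75 to 7.31 CPM in wild type and 5.58 to 6.45 CPM in knockout, and leukocyte markers at 15.6 to 17.8 CPM and 11.4 to 17.2 CPM. Summed fibroblast markers did not overlap, at 11.8 to 13.3 CPM in wild type and 9.61 to 11.03 CPM in knockout. The largest drop among them was that of PDGFRA, at 6.56 ± 0.629 and 4.63 ± 0.455 CPM (SD, n = 3 each), while LUM and COL3A1 were not lower. Summed endothelial markers were at 9.91 to 12.5 CPM in wild type and 4.04 to 5.13 CPM in knockout, most of it from KDR. Most of the leukocyte sum was CD68, at 15.2 ± 1.32 and 13.6 ± 3.15 CPM (SD, n = 3 each). A375 is a cell line, so these sums give levels of marker genes and do not show that such cells were present. In bulk RNA, fewer cells of a kind and less RNA per cell cannot be told apart.

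The sequences below are the promoters of the 4 inflammatory genes in which a binding motif of the NF-kappaB type was found, shown because these genes fell together. The letters GGAANTTCC were searched on both strands in the 250 bases before each start site in RefSeq promoter windows (GRCh38.p14), and the match is in capitals. Each sequence ends at the base before the start site, and the match begins 91 bases before the start in CXCL8, 78 in CXCL1, 77 in CXCL2 and 186 in ICAM1.
CXCL8 (chr4:73740459-73740568, plus strand): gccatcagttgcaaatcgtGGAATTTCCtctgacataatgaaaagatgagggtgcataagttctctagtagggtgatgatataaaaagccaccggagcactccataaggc
CXCL1 (chr4:73869283-73869392, plus strand): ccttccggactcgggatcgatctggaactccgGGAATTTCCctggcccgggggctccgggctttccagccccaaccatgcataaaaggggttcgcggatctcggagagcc
CXCL2 (chr4:74099196-74099305, minus strand): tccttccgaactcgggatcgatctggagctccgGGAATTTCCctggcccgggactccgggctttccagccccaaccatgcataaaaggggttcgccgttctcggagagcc
ICAM1 (chr19:10270910-10271119, plus strand): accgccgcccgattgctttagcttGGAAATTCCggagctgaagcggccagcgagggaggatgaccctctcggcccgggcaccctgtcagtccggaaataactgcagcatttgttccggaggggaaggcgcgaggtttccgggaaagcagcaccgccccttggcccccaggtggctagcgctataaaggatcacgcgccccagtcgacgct
Of the 14 inflammatory and NF-kappaB genes that fell, 12 had a window in the table and these 4 held the motif, against 0.826% of all 35116 windows. The lists name known inflammatory and NF-kappaB genes, and their members that did not fall were not searched. The share therefore cannot set the genes that fell apart from the rest of their lists. A match describes letters only.

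Inflammatory mediators were lower in knockout cells. Of 32 listed cytokine, chemokine and related genes, 21 were expressed enough to test. Of these, 10 fell (47.6%, against 4.44% of all genes) and 1 rose (4.76%, against 3.47%). The median log2 fold change was -0.75, against -0.00485 over all tested genes. IL24, a cytokine of the IL-10 family, was at 462, 456.5 and 491 CPM in wild type and 119, 103 and 118 CPM in knockout. It fell 4.16-fold (log2 fold change -2.06, SE 0.07, adjusted p = 2.6e-10), and its gene (chr1:206897443-206904139) lies beside MAPKAPK2 on distal 1q, a stretch described below in which 42.8% of genes fell. CXCL8, the neutrophil chemoattractant interleukin 8, was at 30.04, 29.5 and 33.2 CPM in wild type and 8.78, 7.38 and 8.46 CPM in knockout, a 3.76-fold fall (log2 fold change -1.91, SE 0.13, adjusted p = 2.3e-07). The lowest wild-type library of CXCL8 was thus above 3 times the highest knockout library. CXCL1, a chemokine that acts on the same receptor, went from 8.70, 7.75 and 8.55 CPM to 2.98, 3.30 and 3.05 CPM (2.68-fold lower, adjusted p = 0.00013). CCL2, which attracts monocytes, was low in wild type at 1.31, 0.991 and 0.935 CPM and nearly undetected in knockout at 0.0641, 0 and 0.0351 CPM (log2 fold change -4.84, SE 0.71, adjusted p = 0.00053).

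The remaining members that passed were chosen for mention after their values were seen. ICAM1, the adhesion receptor for leukocyte integrins, fell from 54.5 ± 1.23 to 37.8 ± 2.91 CPM (SD, n = 3 each), and the membrane-bound chemokine CX3CL1 from 2.05 ± 0.229 to 1.00 ± 0.251 CPM. IL1A and IL1B, the interleukin 1 genes, fell from 8.31 ± 0.596 to 5.46 ± 0.0615 CPM and from 0.743 ± 0.262 to 0.0662 ± 0.0642 CPM. PTGS2, which encodes cyclooxygenase 2, fell from 1.10 ± 0.296 to 0.450 ± 0.0297 CPM and CXCL2 from 1.07 ± 0.147 to 0.538 ± 0.173 CPM. CXCL16 was the member that rose, from 4.07 ± 0.771 to 6.85 ± 0.915 CPM, and its gene lies on 17p13, a stretch described below. The summed level of all tested members was 649, 649 and 684 CPM in wild type and 251, 251 and 264 CPM in knockout, most of it IL24, and 9 of the 10 members that fell lie outside distal 1q. The count of members that fell was 5 without knockout replicate 3, 6 without wild-type replicate 3 and at most 9 with any 1 library left out. The calls lost in these ways were those of CX3CL1 (without knockout replicate 3), IL1B (without knockout replicate 2 or 3 or wild-type replicate 3), IL1A and PTGS2 (without any knockout replicate or wild-type replicate 2 or 3), CXCL2 (without any one of the libraries) and CXCL16 (without knockout replicate 2 or 3 or wild-type replicate 1 or 2). The calls of IL1A, PTGS2 and CXCL2 were also lost with limma on the deposited normalized signal, and that of CXCL2 with DESeq2, without a low-count filter and with the replicate number as a block too. Those of IL24, CXCL8, CXCL1 and ICAM1 held under each other fit, and that of CCL2 under each that tested it; a filter on a mean of at least 1 CPM leaves CCL2 out. The plot of levels by library shows IL24, CXCL8 and CXCL1.

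**Figure D1:**
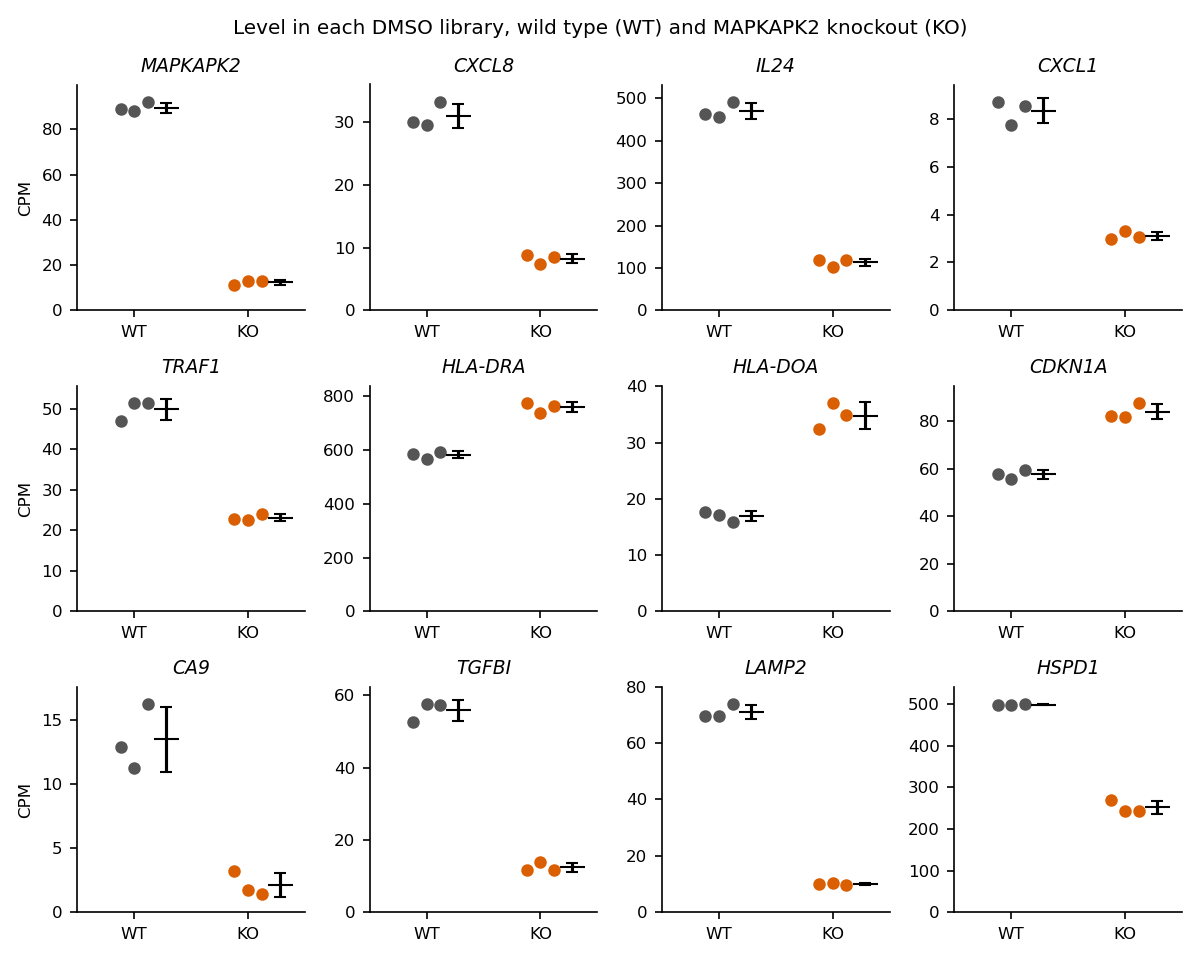
Level of 12 genes in CPM (y axes from 0) in each of the 3 wild-type (WT, grey) and 3 knockout (KO, orange) DMSO libraries, with the mean and SD beside the points. MAPKAPK2, CXCL8, IL24, CXCL1, TRAF1, CA9, TGFBI, LAMP2 and HSPD1 are lower in all 3 knockout libraries, and HLA-DRA, HLA-DOA and CDKN1A higher.

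AU-rich sites were looked at in the same genes, because MK2 is known to act on mRNAs that carry them. The nonamer ATTTATTTA was searched in the longest 3′ UTR of each coding gene in GENCODE 29. It was present in 5 of the 10 inflammatory genes that fell, in 1 of the 11 others and in 8.19% of the tested coding genes. The list names induced inflammatory genes, many of them known to carry AU-rich elements, so an excess over all coding genes was built in. Of the 5, CXCL2, PTGS2 and IL1B lost their calls when libraries were left out, as given above. The first occurrence of the nonamer in each of the 5 is shown with 2 bases on either side and the repeated motif in capitals.
CXCL8: gtATTTATTTAag
CXCL1: ctATTTATTTATTTAtt
CXCL2: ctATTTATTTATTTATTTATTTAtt
PTGS2: atATTTATTTATTTAta
IL1B: ctATTTATTTATTTAtt
IL24, CCL2, ICAM1, CX3CL1 and IL1A fell without holding it, and IL11, at 10.8 CPM in wild type and 7.81 CPM in knockout, held it 3 times without passing the test (adjusted p = 0.063). Over all coding genes outside distal 1q, 4.73% of 12611 genes with no nonamer fell, 6.58% of 881 with 1 and 8.44% of 237 with 2 or more. The shares that rose were 4.90%, 3.86% and 5.49%, so they did not drop in step with the number of nonamers. The median 3′ UTR rose alongside, from 1298 to 3103 and 4250 bases, so the part of length was not separated from that of the motif. The median log2 fold changes of the 3 classes were 0.02, -0.02 and -0.06.

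Of 20 listed factors and feedback genes of NF-kappaB, the transcription factor family that drives many inflammatory genes, 4 fell and none rose. Those that fell made up 20%, against 4.44% of all genes. The list as a whole was evenly split, with 10 members above 0, 10 below and a median of -0.03 that was above 0 with limma, with GC and length offsets or without knockout replicate 3. The count of 4 was the same with each DMSO library left out. TRAF1, an adaptor of TNF receptors, was at 46.9, 51.3 and 51.5 CPM in wild type and 22.7, 22.5 and 24.1 CPM in knockout (2.16-fold lower, adjusted p = 9e-06). BIRC3, a ubiquitin ligase that blocks cell death, fell from 12.6 ± 0.211 to 6.74 ± 0.231 CPM and TNFAIP3, the deubiquitinase A20, from 6.70 ± 0.402 to 3.47 ± 0.663 CPM (SD, n = 3 each). TNFAIP2 was 1.39-fold lower. The factors were not among the genes that differed: the subunit gene RELA had a log2 fold change of 0.06 and the inhibitor gene NFKBIA of -0.31 (adjusted p = 0.078), both named after their values were seen. BCL2A1, a pro-survival BCL2 relative, fell from 1.53 ± 0.115 to 0.157 ± 0.0772 CPM (log2 fold change -3.24, SE 0.34, adjusted p = 2.1e-05). In JQ1, TRAF1, BIRC3, TNFAIP3 and TNFAIP2 were also lower in knockout, at -1.39, -1.26, -0.90 and -0.84, with no library in common between the 2 comparisons. Both come from the same fit and the same 2 genotypes, so a feature of the knockout cells enters both.

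Immediate-early genes, which are transcribed within minutes of a signal, moved in both directions. Of 24 tested, 4 fell (16.7%, against 4.44% of all genes) and 2 rose (8.33%, against 3.47%). With 1 library left out, 2 fell (without knockout replicate 2 or wild-type replicate 1 or 2) or 3. The nuclear receptor genes NR4A1 and NR4A2 fell, NR4A1 from 75.5 ± 1.19 to 48.6 ± 6.26 CPM and NR4A2 from 29.6 ± 0.716 to 19.4 ± 1.39 CPM (adjusted p = 0.0061 and 7.2e-05). KLF4 fell 1.602-fold, a call lost without knockout replicate 2 or wild-type replicate 1 or 2, and that of NR4A3 (log2 fold change -0.57) was lost without any one of the libraries. The NR4A3 call was also lost with DESeq2, with limma, without a low-count filter and with the replicate block. MYC rose from 10.6 ± 0.317 to 14.9 ± 0.92 CPM (adjusted p = 0.0083). Of 20 genes known as readouts of the ERK pathway, which mutant BRAF keeps active, 4 fell (20%) and 3 rose (15%). PHLDA1 fell from 795 ± 29.1 to 622 ± 1.64 CPM, CCND1, which encodes cyclin D1, from 339 ± 16.3 to 271 ± 9.42 CPM and the phosphatase gene DUSP4 from 260 ± 10.7 to 196 ± 8.11 CPM. IL1RAP, the co-receptor for interleukin 1, rose from 55.1 ± 2.24 to 86.3 ± 5.46 CPM (1.57-fold, adjusted p = 0.00012). DUSP6, another ERK phosphatase, rose 1.151-fold, and this call was lost without knockout replicate 1 or 3 or wild-type replicate 1 or 3. It was also lost with scaling by library totals and without a low-count filter. The DUSP family, which holds DUSP4 and DUSP6 too, had 3 members lower (15%) and 1 higher (5%) of 20. The largest change was that of DUSP9, at 9.04 ± 0.601 and 4.13 ± 0.755 CPM.

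MHC class II genes, which present peptides to CD4 T cells, were higher in knockout cells. All 12 listed genes were tested and 10 rose (83.3%, against 3.47% of all genes), with a median log2 fold change of 0.39. The count was 8 to 11 under all settings run. HLA-DOA, which modulates peptide loading, was at 17.7, 17.1 and 15.9 CPM in wild type and 32.4, 37.1 and 34.97 CPM in knockout (2.06-fold higher, adjusted p = 4.8e-06). HLA-DQA1 rose 1.68-fold, from 19.1 ± 0.521 to 32.1 ± 1.01 CPM, and HLA-DMA 1.42-fold, from 44.8 ± 0.449 to 63.5 ± 3.79 CPM. HLA-DRA, named after its values were seen as the chain shared by all HLA-DR molecules, was at 585, 567 and 594 CPM in wild type and 775, 738 and 765 CPM in knockout (1.30-fold, adjusted p = 0.00078). HLA-DRB1 and HLA-DRB5, whose near-identical sequences can share reads, both rose, at 0.43 and 0.40 on the log2 scale. HLA-DQB1, HLA-DPA1, HLA-DPB1 and HLA-DMB rose by 1.49-fold, 1.27-fold, 1.23-fold and 1.23-fold, the call of HLA-DPB1 being lost without knockout replicate 3 or wild-type replicate 1 or 2 and that of HLA-DMB without knockout replicate 3 or wild-type replicate 2. The 2 that did not pass were the invariant chain gene CD74, at 724 ± 36.5 and 831 ± 101 CPM, and the master regulator gene CIITA, at 77.6 ± 3.97 and 91.1 ± 10.8 CPM (adjusted p = 0.22 and 0.30). All 10 were also higher in knockout under JQ1 and passed there, where the list median was 0.51.

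Of 9 class II genes that rose and have a RefSeq promoter window, 4 held the Y-box letters CTGATTGG on either strand within 250 bases before the start (HLA-DMA, HLA-DQB1, HLA-DRB1 and HLA-DRB5), against 3.81% of all windows. Class II genes that did not rise were not searched, so the share cannot set those that rose apart from them. Class I presentation changed less. Of 17 genes, 3 rose (17.6%, against 3.47% of all genes) and none fell. Those that rose were HLA-B at 120 ± 4.32 and 144 ± 4.75 CPM, HLA-C at 44.8 ± 0.321 and 53.3 ± 2.75 CPM and the disulfide isomerase gene PDIA3 at 36.3 ± 2.21 and 47.5 ± 1.55 CPM. Only 1 class I gene still passed when knockout replicate 3 or wild-type replicate 1 or 2 was left out. Among 35 interferon-stimulated genes, 5 rose (14.3%, against 3.47% of all genes) and 2 fell (5.71%, near the 4.44% over all genes). GBP2, an interferon-induced GTPase, rose from 39.7 ± 3.11 to 55.4 ± 1.54 CPM and PARP9 from 34.1 ± 1.15 to 47.1 ± 3.14 CPM, while OAS2, an antiviral sensor of double-stranded RNA, fell from 11.02 ± 0.73 to 7.18 ± 0.393 CPM. With 1 library left out, 3 to 4 rose and 1 fell, 3 without knockout replicate 3 or wild-type replicate 1.

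**Figure D2:**
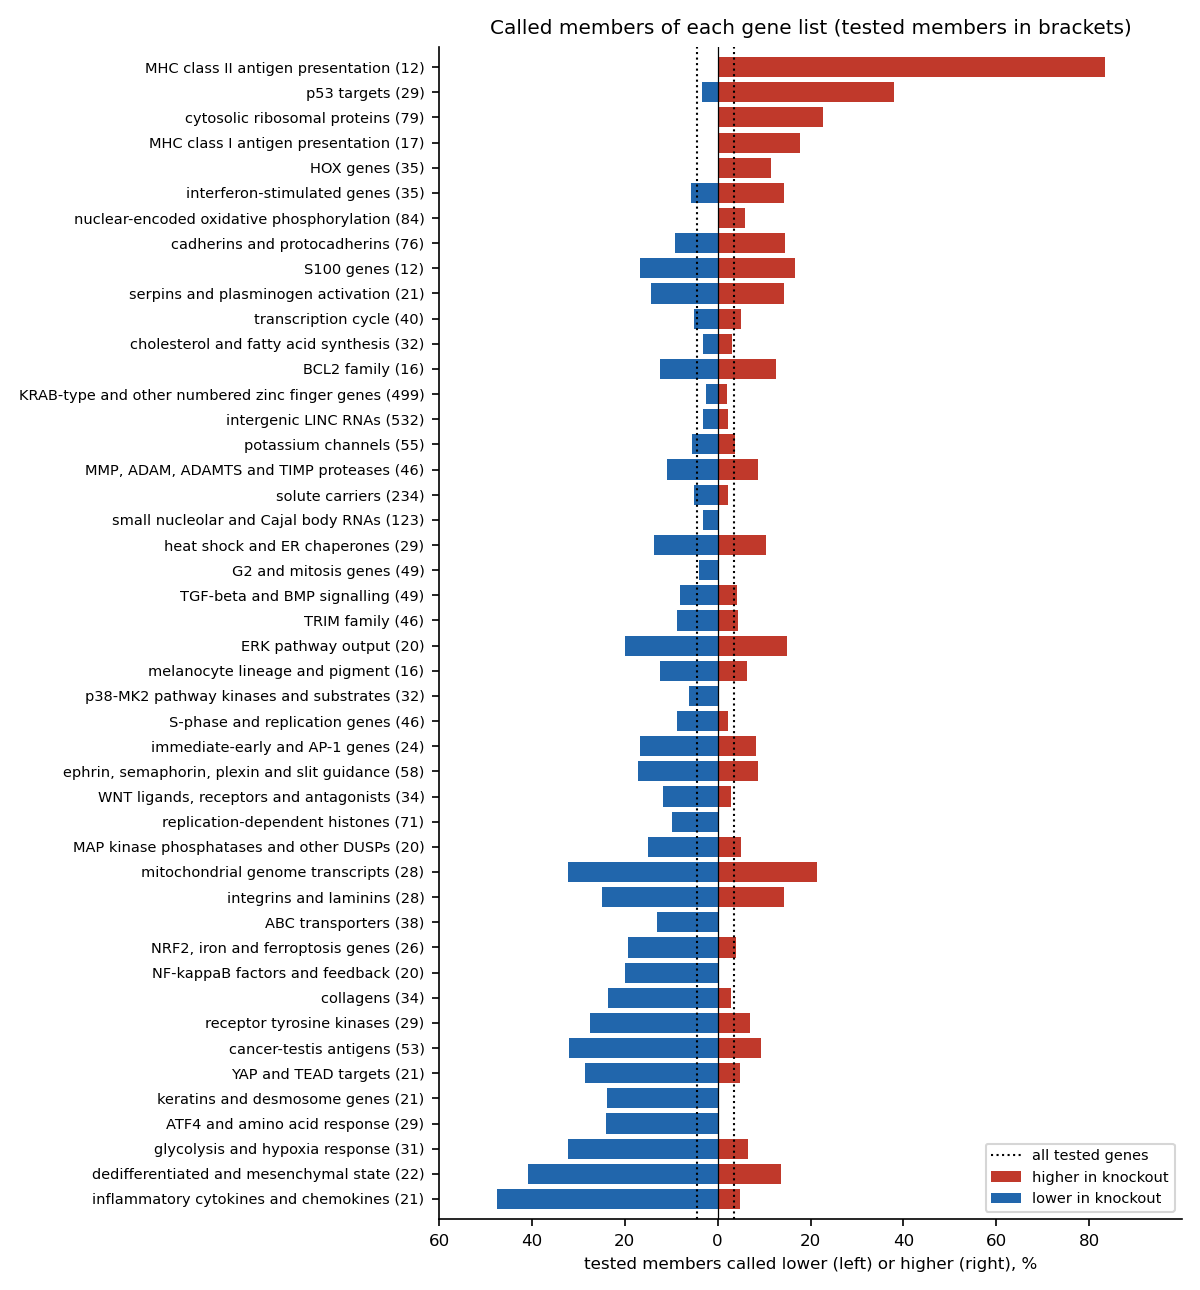
Share of tested members (x axis, %) that were lower (blue, left) or higher (red, right) in knockout cells for each of 46 gene lists, with the number tested in brackets. Dotted lines mark the shares over all tested genes, 4.44% lower and 3.47% higher; MHC class II genes reach 83.3% higher and inflammatory genes 47.6% lower.

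Of 29 tested targets of p53, the tumour suppressor that answers DNA damage, 11 rose (37.9%, against 3.47% of all genes) and 1 fell in knockout cells. The median log2 fold change was 0.29, and 9 to 11 rose with 1 library left out. CDKN1A, the cell cycle inhibitor p21, was at 57.7, 55.8 and 59.5 CPM in wild type and 82.4, 82.0 and 87.8 CPM in knockout (1.46-fold higher, adjusted p = 5.5e-05). EDA2R, a receptor of the TNF family, rose 2.00-fold from 7.09 ± 0.685 to 14.2 ± 2.55 CPM. The nucleotide excision repair gene DDB2 rose 1.35-fold, SESN1, a brake on mTORC1, 1.43-fold and the pro-apoptotic BAX 1.38-fold. ZMAT3, BTG2, AEN and TP53I3, named after their values were seen, rose by 0.49, 0.53, 0.41 and 0.39 on the log2 scale. GDF15, a stress cytokine also counted among the targets, went the other way, from 2.29 ± 0.151 to 0.781 ± 0.176 CPM. No target fell with limma on the deposited normalized signal, where the call of GDF15 was lost, or with a mean of at least 1 CPM required. In JQ1 all 12 kept their sign and 6 passed, with a list median of 0.14.

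Cell cycle genes showed few differences beyond those on distal 1q. Of 46 replication genes, 4 fell (8.70%, against 4.44% of all genes) and 1 rose (2.17%, against 3.47%). MCM4, a subunit of the replicative helicase, fell from 283 ± 5.55 to 185 ± 5.89 CPM (1.53-fold, adjusted p = 9.1e-07), and EXO1 and DTL, which also fell, lie on distal 1q. Of 49 genes of G2 and mitosis, 2 fell (4.08%, below the 4.44% over all genes), NEK2 and CENPF, both on distal 1q. The median of the mitotic list was -0.11 and 43 of its 49 members were below 0, and 13 fell when only the 6 DMSO libraries were fitted or the third knockout library in JQ1 was left out. Among 71 replication-dependent histone genes, 7 fell (9.86%, against 4.44% of all genes) and none rose, with a median of -0.10. Of the 7, 2 lie on distal 1q, where 3 histone genes were tested. HIST1H1A, a linker histone, fell from 28.5 ± 2.81 to 16.3 ± 1.61 CPM. The histone count was 4 without knockout replicate 2 or 3 or wild-type replicate 2 or 3, and 16 without the third knockout library in JQ1. BAX and BID, both pro-apoptotic, were the BCL2 relatives that rose, and PMAIP1, the BH3-only gene also called NOXA, fell with BCL2A1. Of these, the call of BID was lost without knockout replicate 1 or 3 or wild-type replicate 1 or 2, and that of PMAIP1 without knockout replicate 2 or 3 or any wild-type replicate. That of BID was also lost with library totals, with limma and without a low-count filter.

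Of 22 tested genes of the dedifferentiated and mesenchymal state of melanoma, 9 fell (40.9%, against 4.44% of all genes) and 3 rose (13.6%, against 3.47%). With 1 library left out, 7 to 8 fell. TGFBI, a matrix protein induced by TGF-beta, was at 52.6, 57.6 and 57.3 CPM in wild type and 11.7, 13.9 and 11.7 CPM in knockout (4.49-fold lower, adjusted p = 1.8e-09). NGFR, the neural crest marker CD271, fell from 8.01 ± 1.07 to 1.70 ± 0.384 CPM, and THBS1, the matrix glycoprotein thrombospondin 1, from 415 ± 7.64 to 241 ± 14.7 CPM. FN1, NRG1 and SOX9, named after their values were seen, fell by 0.61, 1.83 and 2.92 on the log2 scale, SOX9 from only 0.537 ± 0.104 CPM. The members that rose were CDH2, the N-cadherin gene, from 146 ± 2.24 to 195 ± 4.11 CPM, VIM, the vimentin gene, 1.19-fold, and the matrix gene TNC. MITF, the master regulator of melanocytes, also fell, from 42.9, 42.1 and 44.1 CPM to 30.9, 25.6 and 29.98 CPM (1.49-fold, adjusted p = 0.00032), whereas S100B rose 1.37-fold. MITF, OCA2 and S100B were the 3 that differed of 16 melanocyte lineage genes (12.5% lower and 6.25% higher).

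Matrix and epithelial junction genes were lower more often than higher. Of 34 collagen genes, 8 fell (23.5%, against 4.44% of all genes) and 1 rose (2.94%, against 3.47%), with a median of -0.18. With 1 library left out, 6 to 7 fell. Summed fibroblast markers were also lower in knockout, as given above, and their part in the collagen and mesenchymal genes was not tested. COL6A3 fell from 3.31 ± 0.27 to 0.706 ± 0.12 CPM (4.65-fold), COL8A1 from 8.22 ± 0.74 to 3.87 ± 0.127 CPM and COL16A1 from 13.99 ± 0.529 to 8.80 ± 0.614 CPM. COL4A2, the member with the most counts in wild type, was at 501 ± 29.7 and 521 ± 55.1 CPM. Keratin and desmosome genes had 5 lower (23.8%) and none higher of 21, with a median of -0.45. KRT81, a hair keratin, was at 10.97, 10.7 and 11.02 CPM in wild type and 1.86, 1.17 and 1.51 CPM in knockout (log2 fold change -2.84, SE 0.22, adjusted p = 1.1e-06). The desmosome plaque genes PKP2 and DSP fell 2.83-fold and 1.58-fold, and KRT80 1.89-fold. KRT81 is near-identical to KRT86, and reads can be split between them.

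Adhesion receptors and their ligands moved both ways. LAMA2, the laminin chain of muscle and nerve basement membranes, rose from 25.5, 26.4 and 26.7 CPM to 59.6, 55.5 and 59.9 CPM (2.23-fold, adjusted p = 2.6e-08). LAMB3, a laminin chain of epithelia on distal 1q, and ITGB4, a laminin receptor subunit, fell from 5.85 ± 0.337 to 2.92 ± 0.564 CPM and from 15.7 ± 1.149 to 8.34 ± 1.600 CPM. In all, 7 integrin and laminin genes fell and 4 rose of 28 (25% and 14.3%, against 4.44% and 3.47% of all genes). In this list 3 to 4 fell when any 1 library was left out, while 2 rose without knockout replicate 3 or wild-type replicate 2. Cadherins and protocadherins had 11 higher (14.5%) and 7 lower (9.21%) of 76. PCDH15, known from hair cells of the ear, rose 2.44-fold, from 6.77, 6.73 and 4.51 CPM to 15.6, 13.6 and 14.5 CPM. Only 5 to 7 cadherin genes rose with any 1 library left out and 5 with scaling by library totals, and the clustered protocadherins share exons and therefore reads. Of 46 matrix proteases and inhibitors, 5 fell (10.9%) and 4 rose (8.70%), with 3 to 4 lower when 1 library was left out. They include the inhibitor TIMP3, from 1042 ± 20.4 to 772 ± 56.6 CPM, and the aggrecanase ADAMTS5, from 0.440 ± 0.195 to 1.67 ± 0.341 CPM. The serpin SERPINA3, an inhibitor of cathepsin G, rose from 877, 804 and 888 CPM to 1497, 1454 and 1566 CPM (1.76-fold, adjusted p = 5.2e-07), and SERPINF1 fell 3.94-fold.

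Receptors and ligands of several signalling families differed singly. KDR, the receptor VEGFR2, was at 10.1, 7.97 and 9.89 CPM in wild type and 2.82, 2.75 and 3.19 CPM in knockout (3.20-fold lower, adjusted p = 1.1e-06), while FLT1, the receptor VEGFR1, rose 1.34-fold. Of 29 receptor tyrosine kinase genes, 8 fell (27.6%, against 4.44% of all genes) and 2 rose (6.90%, against 3.47%). Only 1 to 4 fell with a library left out, 1 of them without wild-type replicate 3. NRP1, a co-receptor for VEGF and semaphorins, fell from 53.9 ± 0.814 to 32.1 ± 1.43 CPM (1.68-fold, adjusted p = 1.1e-06) and EPHA3 rose from 257 ± 11.9 to 356 ± 21.5 CPM. These are 2 of 58 axon guidance genes, of which 10 fell (17.2%) and 5 rose (8.62%). Without wild-type replicate 1, 6 fell, and 3 rose without knockout replicate 3 or wild-type replicate 3. The WNT antagonist DKK1 was at 9.18, 7.19 and 8.44 CPM in wild type and 2.40, 1.72 and 2.60 CPM in knockout (3.69-fold lower, adjusted p = 1.8e-06), and the non-canonical ligand WNT5A fell 1.34-fold. DKK1 and WNT5A are among 4 lower genes of 34 in the WNT list (11.8%, against 4.44% of all genes), which had 1 higher (2.94%, against 3.47%). FST, which encodes the activin trap follistatin, fell from 258 ± 7.28 to 163 ± 5.39 CPM and ID4 from 1.89 ± 0.163 to 0.296 ± 0.119 CPM. In all, 4 fell (8.16%) and 2 rose (4.08%) of 49 genes of the TGF-beta and BMP pathways, near the 4.44% and 3.47% over all genes. With any 1 DMSO library left out 3 fell, and 1 rose without knockout replicate 2 or 3 or wild-type replicate 1 or 2. YAP and TEAD targets had 6 lower (28.6%) and 1 higher (4.76%) of 21, with 2 to 3 lower when any 1 library was left out.

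**Figure D3:**
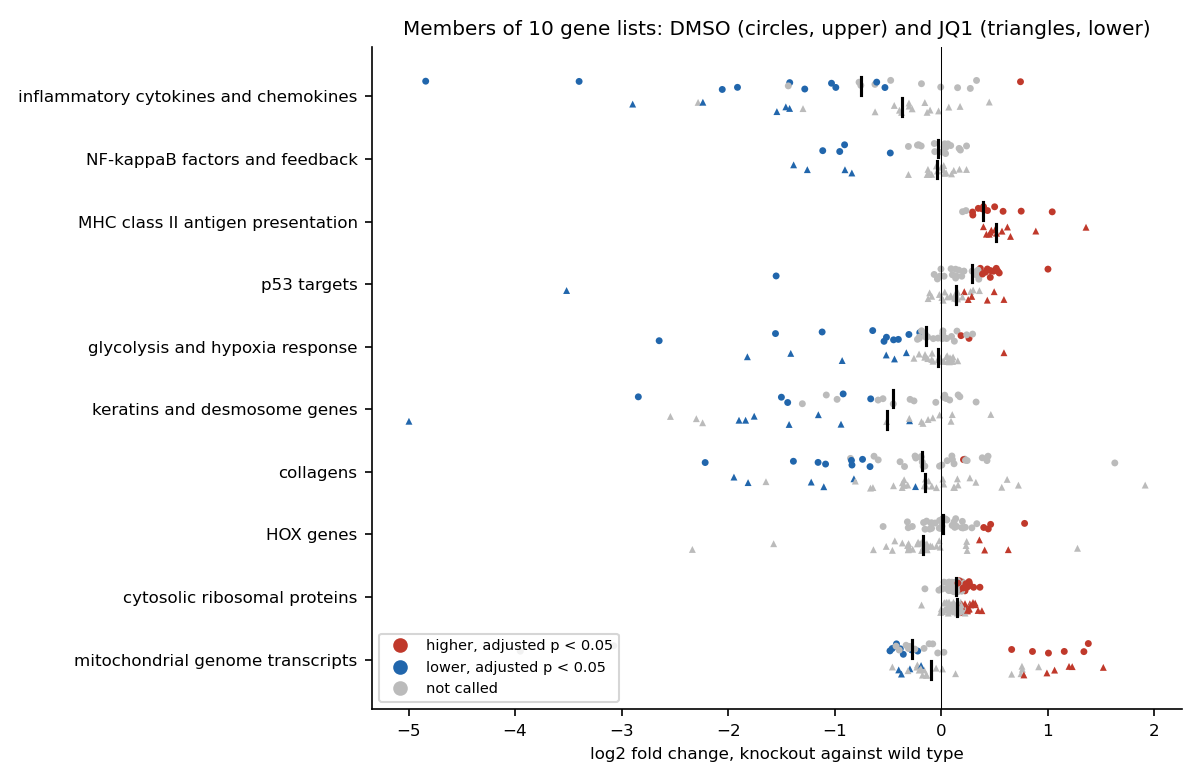
Log2 fold change between knockout and wild type (x axis) for each tested member of 10 gene lists in DMSO (circles, upper row of each pair) and in JQ1 (triangles, lower row), with red higher, blue lower and grey not past the threshold, and black bars at the medians. MHC class II genes are all above 0 in both rows, with medians of 0.39 and 0.51, and most inflammatory genes are below 0, with medians of -0.75 and -0.37.

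Of 31 genes of glycolysis and the hypoxia response, 10 fell (32.3%, against 4.44% of all genes) and 2 rose (6.45%, against 3.47%). The other 19 did not pass, 12 members of the list were above 0 and the median was -0.15. With 1 library left out 7 to 8 fell, and 1 rose without knockout replicate 1 or 3 or wild-type replicate 2. CA9, the carbonic anhydrase induced by low oxygen, was at 12.9, 11.3 and 16.2 CPM in wild type and 3.24, 1.72 and 1.44 CPM in knockout (6.27-fold lower, adjusted p = 6.9e-06). NDRG1 fell from 97.0 ± 7.6 to 44.7 ± 0.425 CPM (2.17-fold, adjusted p = 9.2e-08), the mitophagy receptor gene BNIP3 from 107 ± 4.07 to 68.4 ± 8.41 CPM and the neuronal enolase gene ENO2 from 47.3 ± 1.89 to 33.1 ± 1.17 CPM. PDK1, PFKFB4 and VEGFA, named after their values were seen, fell by 0.45, 0.54 and 0.40 on the log2 scale. The call of VEGFA was lost without knockout replicate 2 or wild-type replicate 2 and with limma on the deposited normalized signal. HIF1A, which encodes the oxygen-sensing factor, was at 248 ± 13.4 and 215 ± 16.2 CPM (adjusted p = 0.16) and the glycolytic gene GAPDH at 3727 ± 25.05 and 3762 ± 113 CPM. The core letters ACGTGC of the hypoxia response element were in the 250 bases before the start in 5 of the 8 lower genes with a promoter window, against 5.83% of all windows. Members of this list that did not fall were not searched, so the share cannot set those that fell apart from them. In JQ1 the list median was -0.03 and 5 of the 12 genes passed with the same sign.

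The amino acid response driven by ATF4 had 7 lower (24.1%, against 4.44% of all genes) and none higher of 29 genes. With 1 library left out, 6 to 7 were lower. STC2, a secreted glycoprotein, fell 2.58-fold from 6.67 ± 0.346 to 2.59 ± 0.177 CPM, and SLC7A5, a transporter of large neutral amino acids, from 226 ± 8.9 to 151 ± 13.96 CPM. SLC7A1, the transporter of cationic amino acids, fell 1.28-fold and ATF4, named after its values were seen, from 264 ± 2.94 to 207 ± 7.58 CPM. FTH1, the ferritin heavy chain that stores iron, was at 226, 225 and 230 CPM in wild type and 157, 168 and 174 CPM in knockout (1.37-fold lower, adjusted p = 9.6e-05), and the transferrin receptor gene TFRC fell 1.31-fold, a call lost without knockout replicate 2. These 2 are among 5 lower genes (19.2%) of 26 in the list of NRF2, iron and ferroptosis genes. In that list 1 fell without knockout replicate 2 and 2 without knockout replicate 3 or wild-type replicate 1 or 3.

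The 79 cytosolic ribosomal protein genes had 18 higher (22.8%, against 3.47% of all genes) and none lower. Of the 79, 77 were above 0, with a median log2 fold change of 0.14. Their summed level was 66280, 67327 and 69635 CPM in wild type and 76278, 74897 and 73616 CPM in knockout. RPL14 rose 1.29-fold from 107 ± 4.18 to 138 ± 4.63 CPM, and RPS15 1.23-fold from 203 ± 10.3 to 250 ± 9.69 CPM. The count was 7 without wild-type replicate 1, 8 without wild-type replicate 2, 9 without knockout replicate 3, 8 with scaling by library totals and 38 without the third knockout library in JQ1, while the median ran from 0.09 to 0.17. Nuclear genes of oxidative phosphorylation had 5 higher (5.95%, against 3.47% of all genes) and none lower of 84, with 73 above 0 and a median of 0.11. With any 1 library left out, 2 to 3 were higher. The RNAs RN7SK, RN7SL1, RN7SL2 and RMRP, made by RNA polymerase III, moved with these groups, at 88760, 88939 and 92781 CPM summed in wild type and 108316, 113249 and 102300 CPM in knockout. Their part in the shifts of the ribosomal and respiratory genes was not tested.

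Transcripts of the mitochondrial genome divided by kind. Of 28 tested, 9 fell (32.1%, against 4.44% of all genes), all of them protein-coding. Another 6 rose (21.4%, against 3.47%), all of them transfer RNAs. MT-ATP6, a subunit of ATP synthase, fell from 1435 ± 59.3 to 1099 ± 123.2 CPM (1.31-fold, adjusted p = 0.0046) and MT-ND2, a subunit of complex I, 1.21-fold, while MT-CO1 was at 5561 ± 263 and 5435 ± 314 CPM. The transfer RNAs MT-TC and MT-TN rose from 3.15 ± 0.592 to 6.37 ± 1.12 CPM and from 1.23 ± 0.193 to 2.75 ± 0.0595 CPM. Of the mitochondrial counts, 5 fell without wild-type replicate 2, and 2 rose without wild-type replicate 1 and 3 without knockout replicate 3. The summed mitochondrial level was 18375, 18488 and 17138 CPM in wild type and 14837, 16710 and 15261 CPM in knockout, and the ranges did not overlap.

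Of 29 heat shock and endoplasmic reticulum chaperone genes, 4 fell (13.8%, against 4.44% of all genes) and 3 rose (10.3%, against 3.47%). The median was 0.06. Among those that fell were HSPD1 and HSPE1, which act in the mitochondrial matrix and are neighbours in the genome. HSPD1, the chaperonin HSP60, was at 497, 498 and 500 CPM in wild type and 270, 243 and 243 CPM in knockout (1.98-fold lower, adjusted p = 9.4e-08). HSPE1, its cofactor HSP10, was at 74.8, 69.9 and 69.8 CPM and 41.0, 38.1 and 35.2 CPM (1.87-fold lower, adjusted p = 2e-06). The small heat shock gene HSPB8 fell 4.33-fold from 1.92 ± 0.111 CPM, and HSPA5, the chaperone BiP, rose 1.20-fold. The stress-inducible HSPA1A was at 36.0 ± 0.617 and 37.2 ± 4.67 CPM. HSPD1 and HSPE1 are transcribed in opposite directions from a shared promoter on chromosome 2. The 104 bases between their RefSeq start sites, read along the HSPE1 strand, are shown because the genes on either side fell alike.
HSPD1 to HSPE1 (chr2:197500275-197500378, plus strand): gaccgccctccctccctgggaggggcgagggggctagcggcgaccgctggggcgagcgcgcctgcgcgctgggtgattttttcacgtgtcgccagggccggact
The next gene beyond HSPE1, MOB4, and the read-through transcript HSPE1-MOB4 fell too, MOB4 from 36.3 ± 2.46 to 18.9 ± 1.55 CPM and HSPE1-MOB4 from 6.51 ± 0.906 to 3.40 ± 0.183 CPM. The 4 log2 fold changes lay between -0.99 and -0.91. The outer neighbours COQ10B, SF3B1 and RFTN2, at 0.05, -0.03 and 0.03, did not pass. These neighbours were chosen after their values were seen.

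LAMP2 and CUL4B, near each other on the X chromosome, also fell together, and no shared promoter was examined for them. LAMP2 (chrX:120427827-120469365), a membrane protein of lysosomes, was at 69.7, 69.6 and 73.9 CPM in wild type and 10.1, 10.4 and 9.86 CPM in knockout (7.01-fold lower, adjusted p = 1.4e-12). CUL4B (chrX:120524609-120575794), a scaffold of ubiquitin ligases, was at 115, 112 and 110 CPM and 17.8, 17.5 and 17.7 CPM (6.37-fold lower, adjusted p = 1.8e-10). Both kept about as small a share of their wild-type level, 14.3% and 15.7%, as MAPKAPK2 did. The neighbours ZBTB33, MCTS1 and C1GALT1C1 had log2 fold changes of -0.07, 0.02 and -0.13 and did not pass, and TMEM255A rose by 0.44. Another X-linked pair rose together, CHRDL1, a BMP antagonist, from 62.1 ± 3.23 to 145 ± 0.602 CPM and PAK3, a kinase of neurons, from 1.01 ± 0.0447 to 3.79 ± 0.309 CPM.

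**Figure D4:**
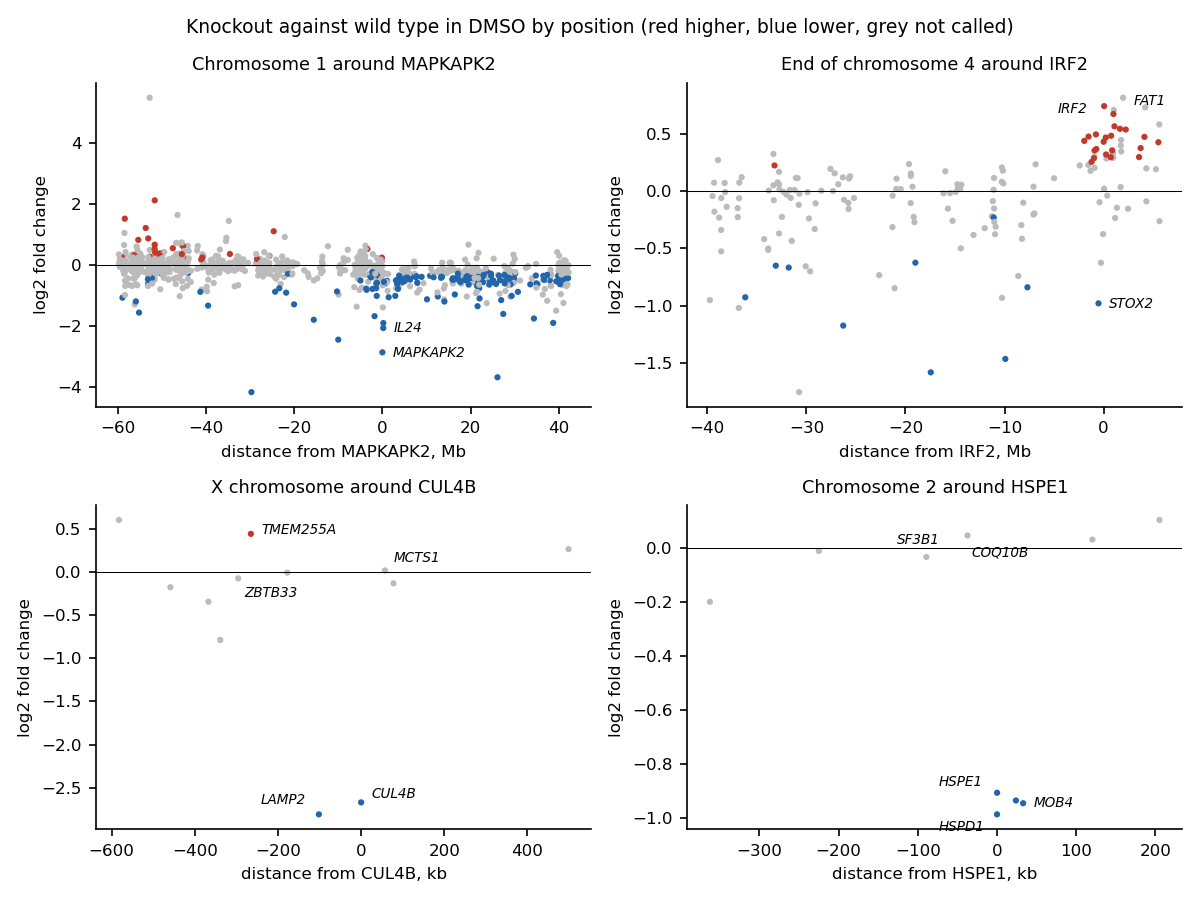
Log2 fold change in DMSO (y axes) of genes by distance (x axes) from MAPKAPK2 on chromosome 1, IRF2 on chromosome 4, CUL4B on X and HSPE1 on chromosome 2, with red higher, blue lower and grey not past the threshold. Genes beyond MAPKAPK2 sit mostly below 0 (median -0.39), genes near IRF2 mostly above 0 (median 0.32), and LAMP2 with CUL4B and HSPD1 with HSPE1 and MOB4 stand below their neighbours.

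Whole stretches of chromosomes differed as well. On chromosome 1 from MAPKAPK2 to the end of the long arm, 128 of 299 tested genes fell (42.8%, against 4.44% of all genes) and none rose. The median log2 fold change was -0.39, and 276 of the 299 were below 0. On the rest of chromosome 1 the median was -0.01 and 4.37% fell. NID1, a basement membrane linker, was at 192, 221 and 198 CPM in wild type and 90.5, 110 and 105 CPM in knockout (2.00-fold lower), and SERTAD4 fell 1.71-fold. Just on the other side of MAPKAPK2, DYRK3 had a log2 fold change of -0.04 and EIF2D of 0.25. This stretch held 13.3% of all genes that fell. In JQ1 its median was -0.37. On chromosome 4 beyond 180 Mb, 22 of 51 genes rose (43.1%, against 3.47% of all genes) and 1 fell, with a median of 0.32 in DMSO and 0.29 in JQ1. This stretch was chosen after its values were seen. The protocadherin relative FAT1 rose there from 344 ± 4.92 to 501 ± 15.4 CPM (1.46-fold, adjusted p = 2e-06) and the interferon regulatory factor gene IRF2 1.35-fold, and STOX2 fell 1.97-fold. On 17p13, taken as the first 10 Mb of chromosome 17, 35 of 229 genes rose (15.3%) and 5 fell, with a median of 0.11. PSMB6, a proteasome subunit, rose 1.57-fold and C1QBP 1.54-fold. Distal 1q and 17p13 were known from earlier results of these data, so the shares given for all 3 stretches are a description. DNA copy number was not measured in these libraries, and its part in the 3 stretches was not tested. Over the remaining 20578 placed genes, 3.31% rose and 3.95% fell.

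Some gene families had a few very large changes. Of 106 cancer-testis antigen genes, which are normally silent outside the germ line, 53 were tested. Of these, 17 fell (32.1%, against 4.44% of all genes) and 5 rose (9.43%, against 3.47%). GAGE1 had 266, 226 and 242 counts in the wild-type libraries (7.93, 8.002 and 6.65 CPM) and 0 in all 3 knockout libraries. Against a floor of 3 counts over those 3 libraries it was at least 223-fold lower. GAGE12C and GAGE12D carry identical values, at 6.12 ± 0.479 and 0.102 ± 0.0362 CPM, and are counted as 2 genes although they carry the same information. GAGE12F was higher in knockout, at 13.8 ± 1.79 and 21.4 ± 2.23 CPM, and GAGE2A lower, at 15.9 ± 0.723 and 10.7 ± 1.06 CPM, both named after their values were seen. The GAGE copies are near-identical, so their separate values are uncertain. MAGEA4, the member with the most counts, was at 497 ± 11.6 and 528 ± 20.01 CPM and did not pass. With 1 library left out 15 to 16 members fell, and 3 rose without knockout replicate 1 or wild-type replicate 1 or 2. With a mean of at least 1 CPM required, 9 fell. TRIM51 was added to the cancer-testis list by name, beside the antigen families, and is also in the TRIM list. It is among the 5 that rose, 5.46-fold from 2.45 ± 0.341 to 13.4 ± 0.752 CPM.

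HOX genes had 4 higher (11.4%, against 3.47% of all genes) and none lower of 35, and all 4 belong to the HOXB cluster on chromosome 17. HOXB8 was at 15.3, 15.5 and 14.4 CPM in wild type and 23.2, 29.5 and 25.1 CPM in knockout (1.72-fold higher, adjusted p = 0.00045), and HOXB9 rose 1.38-fold. HOXB5 and HOXB6 rose by 0.44 and 0.40 on the log2 scale, and these 2 calls were lost without knockout replicate 2 or 3 or wild-type replicate 2 or 3, and that of HOXB5 also without wild-type replicate 1. Both were also lost with the replicate block, and that of HOXB5 with library totals and with limma. Among 499 numbered zinc finger genes, 10 rose (2.00%) and 13 fell (2.61%), shares below those over all genes, and only 6 fell without wild-type replicate 1 and 5 rose without knockout replicate 2 or wild-type replicate 3. ZNF208 fell 5.50-fold from 6.45 ± 0.557 to 1.17 ± 0.182 CPM. Intergenic long noncoding RNAs of the LINC series had 12 higher (2.26%) and 17 lower (3.20%) of 532, shares below those over all genes. With 1 library left out, 10 to 13 were lower and 7 to 9 higher, 7 of them without wild-type replicate 1 or 3. LINC01419 fell from 95.9, 96.3 and 96.9 CPM to 23.1, 22.9 and 23.1 CPM (4.18-fold, adjusted p = 1.8e-09), and LINC01297 rose 3.77-fold. S100A16, a calcium-binding protein, rose from 152 ± 4.01 to 279 ± 9.5 CPM (1.84-fold), while S100A4 fell 1.37-fold. ABC transporters had 5 lower (13.2%) and none higher of 38. Among the lower were ABCA8, from 3.79 ± 0.747 to 0.167 ± 0.0597 CPM, and the drug efflux pump gene ABCB1, from 9.01 ± 0.0565 to 5.69 ± 0.255 CPM. Of 234 solute carrier genes, 12 fell (5.13%, against 4.44% of all genes) and 5 rose (2.14%, against 3.47%), and 2 rose without wild-type replicate 3. They include the bicarbonate transporter gene SLC4A4, which fell 7.32-fold from 2.66 ± 0.302 CPM. Genes of the transcription cycle, the group named in the series title, had 2 higher and 2 lower of 40 (5.00% each, near the 3.47% and 4.44% over all genes). The pausing factor genes NELFCD (1.32-fold) and NELFE (1.25-fold) rose, and the elongation factor genes ELL2 (1.41-fold) and AFF1 (1.30-fold) fell. The call of NELFE was lost without knockout replicate 2 or wild-type replicate 2 or 3, and that of AFF1 without knockout replicate 1 or 3 or wild-type replicate 2 or 3. That of NELFE was also lost with library totals, with limma and with the replicate block.

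The largest falls and rises of genes with at least 5 CPM in either group were not confined to the lists. VAT1L was at 30.6, 28.01 and 31.0 CPM in wild type and 1.57, 1.13 and 1.40 CPM in knockout (21.7-fold lower, adjusted p = 4.4e-12). TMPRSS15, the serine protease enteropeptidase, fell 21.1-fold from 6.26 ± 0.205 CPM, the inflammasome gene NLRP2 from 5.07 ± 0.237 to 0.103 ± 0.149 CPM and RNF128, a ubiquitin ligase, 7.08-fold from 10.3 ± 0.235 CPM. C3, the central complement component, fell 5.45-fold from 5.34 ± 0.488 CPM. TAC1, the precursor of substance P, was at 1.40, 1.98 and 2.17 CPM in wild type and 9.94, 8.89 and 9.16 CPM in knockout (5.03-fold higher, adjusted p = 1.6e-07). MEGF10, an engulfment receptor, rose 3.68-fold from 4.68 ± 0.193 CPM, VAV3, an activator of RAC GTPases, 3.55-fold from 3.57 ± 0.451 CPM and CRMP1, a regulator of axon growth, 3.41-fold from 2.17 ± 0.219 CPM. SPRY4-AS1, an antisense RNA of the ERK inhibitor gene SPRY4, rose 2.99-fold from 5.16 ± 0.306 CPM. Because the counting is not stated to use strand, its reads may include some from the other strand. MT-TS1 rose 2.60-fold, a call lost without knockout replicate 3 or wild-type replicate 1.

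In the JQ1 libraries, the gene lists differed in how many of their members passed again with the same sign. These were 10 of 10 MHC class II genes, 5 of 11 inflammatory genes, none of 6 immediate-early genes, 8 of 18 ribosomal protein genes and 1 of 5 oxidative phosphorylation genes. Of the 29 genes with the largest changes that had counts in both DMSO groups, 26 had the same sign under JQ1 and 25 passed there. VAT1L was at -4.44 in DMSO and -4.19 in JQ1 on the log2 scale, LAMP2 at -2.81 and -3.12, and TRIM51 at 2.45 and 2.52. VAV3 was at 1.83 in DMSO and -0.23 in JQ1, PCDH15 at 1.28 and -0.52 and MT-TS1 at 1.38 and -0.46. The difference between conditions passed the interaction test for VAV3, PCDH15, MEGF10 and LINC01297 (adjusted p = 0.018, 0.0084, 0.021 and 0.019) and not for MT-TS1 (0.19).

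**Figure D5:**
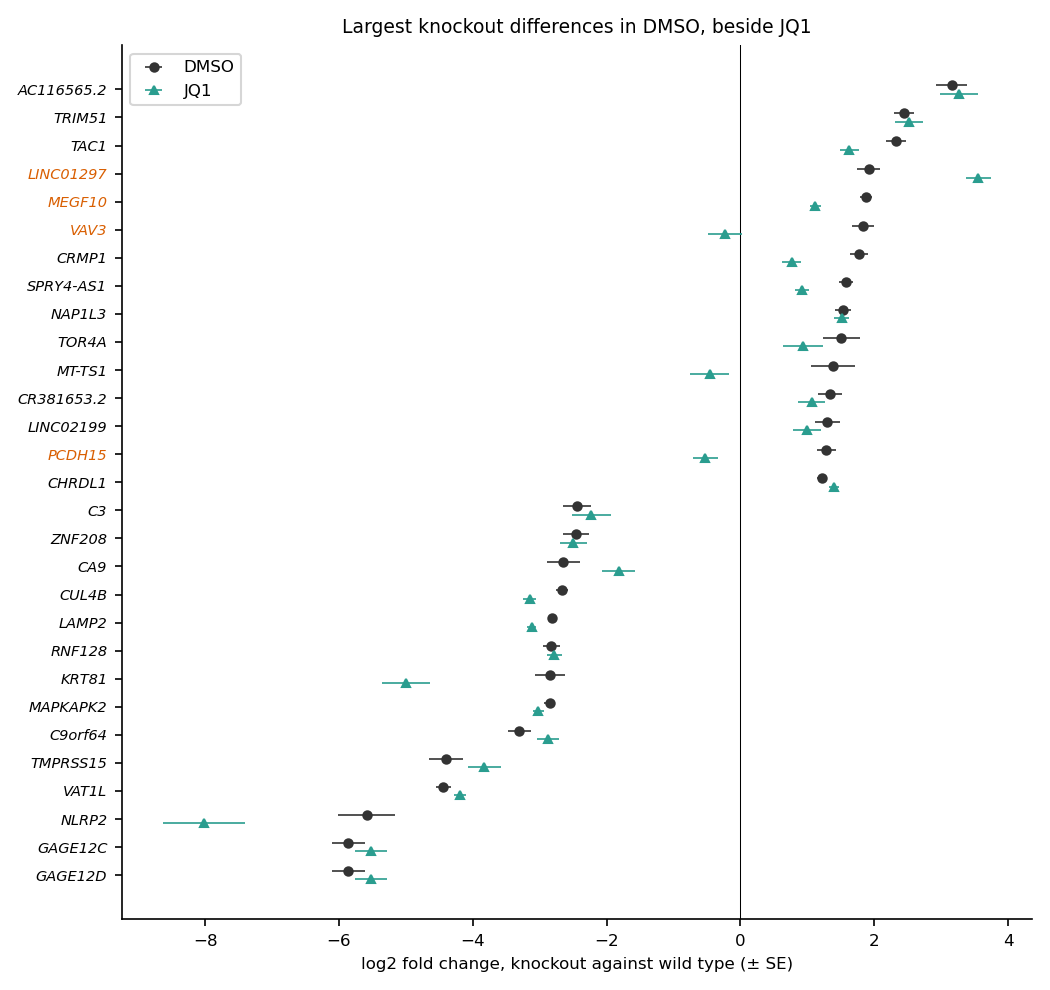
Log2 fold change between knockout and wild type (x axis, with SE bars) of the 29 genes with the largest changes in DMSO (black circles) beside the value in JQ1 (green triangles). Names in orange passed the test of the difference between conditions. VAV3, PCDH15 and MT-TS1 are above 0 in DMSO and below 0 in JQ1.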

How the data were processed

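RNA from A375 cells was sequenced after ribosomal RNA depletion with a directional library kit, per the labels' protocols. The authors deposited estimated counts per gene symbol (kallisto, Trim Galore, cutadapt and DESeq2 with build GRCh38.p10, per the submitters' processing notes, which give no roles) and a second table of normalized signal that the authors made from them. Whether counting used strand is not given in the sources used here.

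Estimated counts were rounded to whole numbers. Genes were kept with edgeR's filter over the 4 groups, scaled by TMM and fitted with edgeR 4.0.16 (R 4.3.3, limma 3.58.1) in 1 quasi-likelihood model of all 12 libraries, with Benjamini-Hochberg adjustment over 21698 genes and a threshold of 0.05. Levels are TMM-scaled CPM. The script was tested on simulated data. Replicates of a group differed by more than counting noise (chi-square per degree of freedom 3.59 to 7.58). Total counts of 26558777 to 34594025 per DMSO library limit precision for genes of a few counts.

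Members and gene lists were chosen with earlier results of these data known. Named were 6 pathway genes, the 15 largest rises and falls (5 CPM or more on average in either genotype, replicates not overlapping), up to 4 differing members of each list with the smallest adjusted p (mean of at least 1 CPM) with its highest member, and 4 genes per chromosome stretch. Other named genes were chosen after their values were seen, including RPS6KA5, IL11 and the neighbours of named genes. Positions and 3′ UTRs came from GENCODE 29 (GRCh38) and promoters from RefSeq (GRCh38.p14). Alternatives were DESeq2 1.42.0, library totals, other filters, a replicate term, GC and length offsets, limma on log2 of the deposited normalized signal with a pseudocount of 1, a stricter threshold of 0.01 and each DMSO library left out. The offsets and the omission of distal 4q were chosen after seeing the data.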

Additional observations from a re-analysis of the deposited data

Results flagged for a closer look

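For 9 named genes the effect of the knockout differed between DMSO and JQ1 by edgeR's quasi-likelihood test of the interaction (Benjamini-Hochberg adjusted p under 0.05). The effect in DMSO minus that in JQ1, on the log2 scale, was 2.06 for VAV3 (SE 0.31, adjusted p = 0.018), which was 3.55-fold higher in knockout in DMSO and at 0.972 and 0.837 CPM in wild type and knockout under JQ1. It was 1.81 for PCDH15 (SE 0.24, adjusted p = 0.0084), at 1.28 in DMSO and -0.52 in JQ1. The difference was -1.64 for LINC01297, whose rise was 1.91 in DMSO and 3.55 in JQ1, and 0.76 for MEGF10, whose rise was 1.88 and 1.12. Follistatin (FST) had a difference of -0.86 (SE 0.10, adjusted p = 0.0084), falling by 0.67 in DMSO and standing at 0.19 in JQ1. The falls of ICAM1, KRT80, TGFBI and LINC01419 were larger in JQ1, with differences of 0.93, 0.98, 0.81 and 0.74.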

How the results depend on the processing

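The log2 fold change of MAPKAPK2 ran from -2.90 to -2.75 over all settings. The count of genes that differed, 1718, became 2739 (1429 of them higher) with GC and length offsets, 2619 (1311 higher) with only the 6 DMSO libraries, 2650 (1276 higher) without knockout JQ1 replicate 3 and 926 (361 higher, 565 lower) at an adjusted p of 0.01. With 1 DMSO library left out it ran from 1092 to 1295 in all, from 432 to 597 for higher genes and from 647 to 708 for lower genes. It was 2023 with DESeq2, 1674 with library totals and 1519 with limma on the normalized signal. Genes that differed by at least 1 on the log2 scale numbered 425, 212 with a mean of at least 1 CPM and 650 with no low-count filter. The cause of these shifts was not tested, except that the filters change how many genes are tested. Of 246 named genes that differed, 229 were tested in every fit and 186 of them passed in each, 204 of the 246 passed at an adjusted p of 0.01, and no call changed direction. Calls lost numbered 5 with DESeq2, 9 with library totals, 16 with limma, 12 with the replicate block and 20 to 38 with 1 DMSO library left out.

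With the replicate number as a block, 1487 genes differed (629 higher, 858 lower). Deviations of same-numbered libraries of the 2 genotypes had correlations of 0.0039, 0.0028 and -0.0027. Those of differently numbered libraries ran from -0.0147 to 0.0121. No pairing by number shows in these values, which include noisy low-count genes and cannot exclude a weak one.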
